A study of Arabidopsis thaliana with 9 samples.

Results

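6 libraries of dark-imbibed Arabidopsis seeds were compared, 3 of the natural accession Ara-1 and 3 of an AtKAI2 overexpression line, out of 9 libraries in the series. The members were chosen by their labels alone, as all libraries of these groups without the karrikin KAR2. Ara-1 is a wild-type accession. The other group, AtKAI2OE, is labelled as an AtKAI2 overexpressor in Col-0, and the methods of the study describe a kai2 mutant (htl-3) background that carries AtKAI2 behind the constitutive 35S promoter. The number of transgenic lines behind these libraries was not given in the sources. In both groups whole seeds were plated under weak light (0.3 µM m-2 s-1, as the labels write it), kept dark at 4 °C for 4 days and dark at room temperature for another 24 h, and frozen as 3 biological replicates per group. The accession, the htl-3 allele and the transgene differ together between the groups and cannot be told apart.

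KAI2, also called HTL, is a receptor of the alpha/beta-hydrolase family for karrikins, which are small molecules from smoke, and for an endogenous ligand that is still unknown. Together with the F-box protein MAX2 it directs the removal of the repressor proteins SMAX1 and SMXL2. In a seed that takes up water, abscisic acid (ABA) holds germination back and gibberellin (GA) promotes it, and in darkness the bHLH factor PIF1 restrains GA synthesis, in part through SOMNUS (SOM). As germination proceeds, mRNAs of seed maturation (storage proteins, oil-body proteins and late embryogenesis abundant proteins) disappear, and genes for reserve use, cell expansion and greening are turned on.

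The libraries held 17479888, 32492017 and 33306518 counts assigned to genes in Ara-1 and 18545549, 27377767 and 25899516 in AtKAI2OE. Replicate 1 of Ara-1 stood apart from its group, with 35.1% of all its counts in assembled transcripts that name no gene against 13.4% and 13.6%, while AtKAI2OE had 25.03%, 27.1% and 28.9%. Leaving out each library in turn gave between 11138 (without Ara-1 replicate 2) and 12890 (without AtKAI2OE replicate 1) called genes, and 11675 without Ara-1 replicate 1, in place of 12470. The first principal component of log2 CPM held 87.0% of the variance and separated the groups. On the second, AtKAI2OE replicate 1 was the library farthest from its group, and its log2 CPM correlated with those of its group across genes at r = 0.939 and 0.948, against 0.965 between the other AtKAI2OE libraries. Values below are CPM, the counts of a gene as a share of all gene counts of the library after TMM scaling (edgeR), and a log2 fold change is Ara-1 minus AtKAI2OE with its standard error. Reads of both groups were mapped to the Col-0 reference by the authors, so that a sequence difference of Ara-1 that stops reads from mapping and a lower mRNA level cannot be told apart. In whole seeds fewer cells of a type and less RNA per cell cannot be told apart either.

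Most genes differed. Of 17905 genes tested by edgeR's quasi-likelihood test (Benjamini-Hochberg adjusted p under 0.05), 6785 were higher (37.9%) and 5685 lower (31.8%) in Ara-1, and 5435 were not called. A change of at least 2-fold was called for 5677 genes upward (31.7%) and 4443 downward (24.8%), of at least 4-fold for 3669 (20.5%) and 2360 (13.2%), and of at least 32-fold for 1323 (7.39%) and 563 (3.14%). At 4-fold in either direction this made 6029 genes (33.7%). Counts of genes past a fold, here and below, use fitted values, which are not bounds for genes without a count in 1 group. WRKY46, with 40 counts in Ara-1 and 0 in AtKAI2OE, had a fitted fold of 94.2. Against 3 counts over AtKAI2OE it was at least 8.99-fold higher. Not every gene counted at 32-fold is therefore shown to differ by that much. The replicates of the groups did not overlap for 75.5% of the genes tested. The median log2 fold change of all genes was 0.16 with TMM and 0.52 when counts were scaled by library size only, a shift of 0.36, so differences much smaller than 2-fold depend on the scaling. Each count of list members below stands beside a background of 69.6% of all tested genes called.

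**Figure D1:**
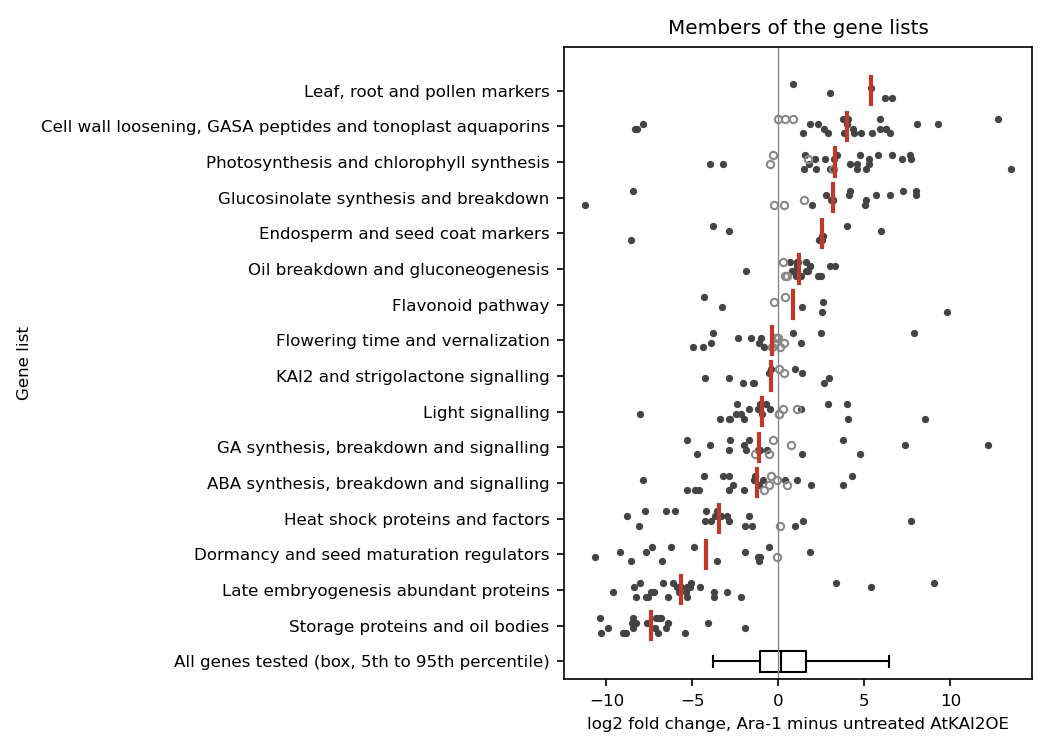
The x axis gives the log2 fold change (Ara-1 minus untreated AtKAI2OE) of every tested member of 16 gene lists, filled where past the test and open where not, with the list's median as a red bar; the box at the bottom holds all 17905 genes (quartiles, whiskers at the 5th and 95th percentiles). Storage protein and late embryogenesis genes sat at the left with medians of -7.41 and -5.64. The joint list of cell wall, GASA peptide and tonoplast aquaporin genes sat at the right with a median of 3.98. A fitted value of a gene without a count in 1 group is drawn as fitted and is not a bound.

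KAI2 itself was far lower in Ara-1, which has no transgene. KAI2 (AT4G37470) had 9.07, 7.38 and 7.57 CPM in the Ara-1 libraries and 129, 125 and 199 CPM in the AtKAI2OE libraries, a log2 fold change of -4.24 ± 0.24 (edgeR adjusted p = 8.54e-06). The gene lies at chr4:17616659-17618656 (TAIR10.1). The groups did not overlap, and the counts do not separate transgene mRNA from the endogenous gene. The genes of its repressor targets were lower as well. SMAX1 (AT5G57710) had 21.9, 20.2 and 15.4 CPM in the Ara-1 libraries and 66.9, 100.4 and 74.9 CPM in the AtKAI2OE libraries (-2.08 ± 0.22 on the log2 scale), and SMXL2 had 6.66, 6.19 and 5.72 CPM against 18.6, 17.5 and 13.1 (-1.405 ± 0.19). MAX2 was called lower by a small difference (-0.44 ± 0.16) that did not pass the test under 15 of 19 alternative settings, among them leaving out any single library other than AtKAI2OE replicate 1 (from -0.58 to -0.37 over the 6 libraries left out in turn). The marker genes commonly used for KAI2 activity did not move together. DLK2 (AT3G24420) had 0.367, 0.507 and 0.273 CPM in the Ara-1 libraries and 2.46, 1.59 and 4.47 CPM in the AtKAI2OE libraries (-2.87 ± 0.50), so DLK2, a paralog of the receptor, was lower in every Ara-1 library. KUF1 (AT1G31350) had 6.97, 5.73 and 5.39 CPM in the Ara-1 libraries and 0.532, 1.05 and 0.687 CPM in the AtKAI2OE libraries (2.96 ± 0.32), so KUF1, an F-box gene, was higher in every Ara-1 library. The B-box gene BBX20 had 6.14, 5.46 and 6.45 CPM against 4.19, 5.13 and 4.85 and did not pass the test (0.34 ± 0.20, adjusted p = 0.156). Of the strigolactone branch, the receptor gene D14 was higher (2.63 ± 0.50) and the repressor gene SMXL6 lower (-1.46 ± 0.25). SMXL3, a family member that acts in phloem formation, was higher (1.35 ± 0.35). In all, 4 of the 13 tested members of this list were higher, 7 lower and 2 not called, with a median of -0.44, and 1 member, SMXL8, had no count in these 6 libraries.

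**Figure D2:**
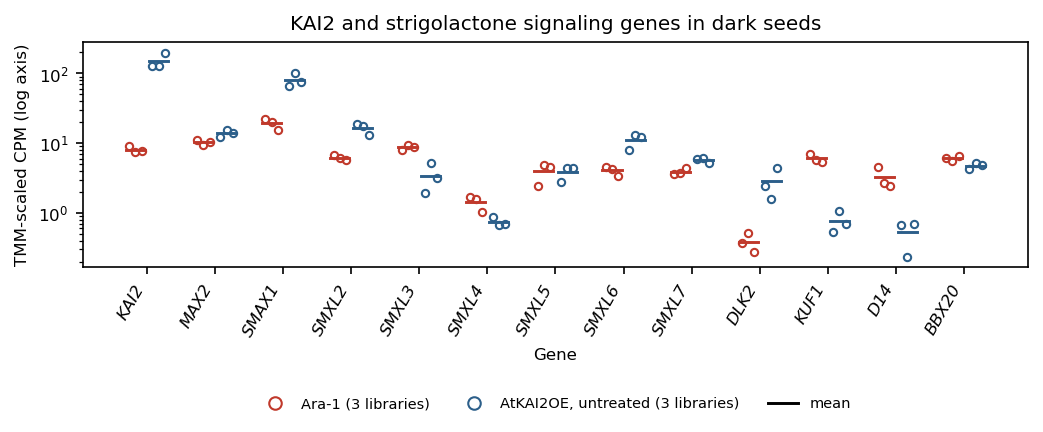
TMM-scaled CPM on a log axis for the 13 tested genes of KAI2 and strigolactone signaling, with a circle for each library and a bar for the mean of 3 libraries (red, Ara-1; blue, untreated AtKAI2OE). KAI2 and SMAX1 lie lower and KUF1 and D14 higher in all Ara-1 libraries, and the circles of SMXL5 overlap.

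Light signaling genes were lower more often than higher, 14 against 5 of 23 tested, with 4 not called and a median of -0.98. The phytochrome genes encode the red and far-red receptors. PHYA (AT1G09570) had 520.5, 401 and 348 CPM in the Ara-1 libraries and 1867, 2429 and 2493 CPM in the AtKAI2OE libraries (-2.42 ± 0.25), and PHYB (-2.16 ± 0.17), PHYD (-2.49 ± 0.15) and PHYE (-1.18 ± 0.28) were lower too, while PHYC did not pass the test (0.05 ± 0.18, adjusted p = 0.814). Blue-light receptor genes split, with CRY2 lower (-0.98 ± 0.16) and PHOT1 higher (2.88 ± 0.26). PIF1 (AT2G20180) had 26.9, 32.4 and 28.1 CPM in the Ara-1 libraries and 63.7, 128 and 89.4 CPM in the AtKAI2OE libraries (-1.68 ± 0.26), and its target SOM had 67.7, 69.3 and 63.0 CPM against 599, 899 and 648 (-3.42 ± 0.22). PIF4 was lower (-2.89 ± 0.51) and PIF3 higher (1.34 ± 0.22). PIF6 (AT3G62090) had 0, 0.964 and 0.738 CPM in the Ara-1 libraries and 158, 229.5 and 126 CPM in the AtKAI2OE libraries (-8.06 ± 0.71), the largest difference downward in the list. The related bHLH gene SPATULA (SPT), which acts on seed germination and on fruit growth, went the other way. SPT (AT4G36930) had 48.9, 47.7 and 48.1 CPM in the Ara-1 libraries and 3.26, 2.22 and 3.69 CPM in the AtKAI2OE libraries (3.99 ± 0.22). PIF5 had no count in AtKAI2OE and 0.944, 2.41 and 1.72 CPM in Ara-1. Against 3 counts over the AtKAI2OE libraries, taken as the limit of detection here and below, PIF5 was at least 39.5-fold higher. Of the repressors of light responses, COP1 (-1.05 ± 0.22) and SPA2 (-2.01 ± 0.21) were lower, and their substrate HY5 was higher at a low level, with 1.84, 1.34 and 0.738 CPM against 0, 0.194 and 0.

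Genes of ABA synthesis and response were mostly lower in Ara-1, 14 of 24 tested against 5 higher, with a median of -1.24. ABA1, which encodes zeaxanthin epoxidase, stood at 5.40, 6.57 and 4.57 CPM in Ara-1 and 97.4, 139.9 and 95.1 in AtKAI2OE (-4.33 ± 0.24). The carotenoid cleavage genes NCED6 (-2.87 ± 0.18) and NCED9 (-4.85 ± 0.22) were lower as well. NCED9 had 0.891, 1.14 and 1.31 CPM in Ara-1 and 27.5, 36.5 and 34.1 in AtKAI2OE, whereas ABA2, which acts after cleavage, was higher (1.88 ± 0.22). Among the ABA 8'-hydroxylase genes, which inactivate the hormone, CYP707A2 (1.07 ± 0.17) and CYP707A3 (4.26 ± 0.68) were higher, and CYP707A1 did not pass the test (0.48 ± 0.29). The transcription factors of ABA response diverged. ABI5 (AT2G36270) had 41.4, 42.6 and 39.1 CPM in the Ara-1 libraries and 309, 314 and 269 CPM in the AtKAI2OE libraries (-2.86 ± 0.15), and ABI3 was lower too (-2.001 ± 0.29). ABI4 (AT2G40220) had 110.2, 103 and 122 CPM in the Ara-1 libraries and 7.24, 8.40 and 9.27 CPM in the AtKAI2OE libraries (3.75 ± 0.16), so ABI4 was higher in every Ara-1 library. Of the protein phosphatases 2C that restrain ABA signaling, HAI1 (-7.86 ± 0.63), HAI2 (-5.34 ± 0.17), AHG1 (-4.65 ± 0.19), HAI3 (-3.23 ± 0.16) and PP2CA (-0.88 ± 0.17) were lower.

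Genes of GA synthesis went in opposite directions by step. GA3OX2 (AT1G80340) had 22.4, 22.1 and 21.99 CPM in the Ara-1 libraries and 0, 0 and 0 CPM in the AtKAI2OE libraries, at least 472-fold higher. It lies at chr1:30200466-30202349 (TAIR10.1). GA3OX1 (AT1G15550) had 21.6, 20.3 and 21.6 CPM in the Ara-1 libraries and 0, 0.117 and 0.215 CPM in the AtKAI2OE libraries (7.37 ± 0.44). Both encode GA 3-oxidases, which make bioactive GA, and in AtKAI2OE they were at or near 0 in every library. Several genes of earlier steps were lower in Ara-1. They were GA1, for copalyl diphosphate synthase (-4.75 ± 1.08), GA2, for ent-kaurene synthase (-2.85 ± 0.28), GA3, for ent-kaurene oxidase (-1.87 ± 0.15), and the GA 20-oxidase genes GA20OX2 (-2.79 ± 0.22) and GA20OX3, whereas KAO1, KAO2 and GA20OX1 did not pass the test. GA20OX3 (AT5G07200) had 21.3, 19.8 and 19.7 CPM in the Ara-1 libraries and 872, 736 and 806 CPM in the AtKAI2OE libraries (-5.31 ± 0.19). The GA receptor genes split. GID1A (AT3G05120) had 13.5, 14.1 and 14.3 CPM in the Ara-1 libraries and 225, 194 and 234 CPM in the AtKAI2OE libraries (-3.96 ± 0.16), and GID1C was lower (-2.02 ± 0.16), but GID1B was higher, with 5.61, 5.18 and 7.03 CPM against 0, 0.311 and 0.902 (3.78 ± 0.77). Among the DELLA genes, whose proteins block GA responses, RGL1 (4.72 ± 0.26) and RGL3 (1.36 ± 0.17) were higher, RGL2 was lower (-1.09 ± 0.19), and RGA did not pass the test (-0.34 ± 0.15, adjusted p = 0.0841). Over the list 5 of 20 tested genes were higher and 11 lower, and 8 of its 29 members had no count in these libraries.

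**Figure D3:**
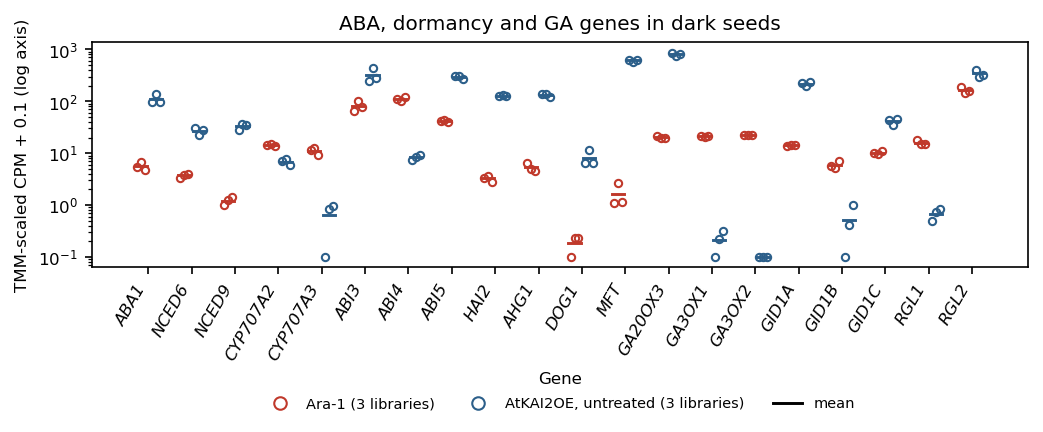
TMM-scaled CPM plus 0.1 on a log axis for 20 genes of ABA synthesis and response, dormancy and GA synthesis and response, with a circle for each library and a bar for the mean of 3 libraries (red, Ara-1; blue, untreated AtKAI2OE). GA3OX1, GA3OX2, GID1B, RGL1, ABI4 CYP707A2 and CYP707A3 are higher in Ara-1, and all others shown are lower.

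Regulators of dormancy and seed maturation were mostly lower, 14 of 16 tested against 1 higher, with a median of -4.22, or -4.08 when genes without a count in Ara-1 are set to their bound. RGL2 counts here as well as in the GA list. DOG1, a major dormancy gene of natural accessions, had 0, 0.127 and 0.137 CPM in Ara-1 and 6.45, 11.2 and 6.40 in AtKAI2OE (-6.25 ± 0.59). The gene lies at chr5:18589418-18591506 (TAIR10.1) and had 10 counts over the Ara-1 libraries. Its relatives at AT4G18680 (-4.89 ± 0.18) and AT4G18690 (-6.80 ± 0.22) were lower too. MFT (AT1G18100) had 0.996, 2.59 and 1.04 CPM in the Ara-1 libraries and 629.9, 574 and 639 CPM in the AtKAI2OE libraries (-8.60 ± 0.46), and MFT (MOTHER OF FT AND TFL1) is an ABA-responsive regulator of germination. RDO5 was lower (-3.56 ± 0.17), as was HUB2 (-1.17 ± 0.23), whose product places ubiquitin on histone H2B. FUS3 and BZIP67, regulators of embryo maturation, had no count in Ara-1. In AtKAI2OE FUS3 had 0.797, 1.71 and 0.429 CPM and BZIP67 0.797, 0.972 and 0.515. SUVH4, for a histone methyltransferase, was the member that was higher (1.84 ± 0.27), and VAL2, a repressor of the maturation program, was the member that was not called.

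Storage genes were lower without exception. All 20 members of the list of storage proteins and oil-body proteins were tested and all 20 were lower in Ara-1, 19 of them by at least 4-fold, with a median of -7.41. CRA1 (AT5G44120) had 119, 233 and 121 CPM in the Ara-1 libraries and 46076, 79905 and 44535 CPM in the AtKAI2OE libraries (-8.49 ± 0.62). CRA1 encodes a 12S cruciferin, the main globulin of the seed, and lies at chr5:17756238-17758336 (TAIR10.1). CRU3 (AT4G28520) had 108, 128 and 76.0 CPM in the Ara-1 libraries and 45629, 55308 and 44019.6 CPM in the AtKAI2OE libraries (-8.86 ± 0.49). The 2S albumin genes SESA1 to SESA5 had log2 fold changes of -5.46 ± 0.44, -7.20 ± 0.39, -6.42 ± 0.29, -7.11 ± 0.31 and -8.30 ± 0.44. Oleosins coat the oil bodies. OLEO1 (AT4G25140) had 67.9, 92.8 and 75.2 CPM in the Ara-1 libraries and 17112, 11908 and 17266 CPM in the AtKAI2OE libraries (-7.62 ± 0.39), and OLEO2 (-8.45 ± 0.46) and OLEO4 (-9.01 ± 0.45) were lower with it. OLEO3, with 16.5, 18.4 and 21.0 CPM against 90.0, 55.0 and 68.4, was the member under 4-fold (-1.93 ± 0.21). The steroleosin genes HSD1 (-10.36 ± 0.42) and AT5G50700 (-10.35 ± 0.34) are near-identical copies, so that reads common to both are not among the uniquely mapped reads and their values are uncertain. Together the 20 genes took 0.058%, 0.082% and 0.052% of gene counts in Ara-1 and 12.6%, 16.9% and 12.5% in AtKAI2OE. With 3 libraries a group the exact two-sided permutation test of this share gave p = 0.1, the smallest it can give. On the scale of all 9 libraries, CRA1 stood at 168 ± 70.5 CPM (SD, n = 3) in Ara-1, 58999.8 ± 20406.4 in untreated AtKAI2OE and 6999 ± 215 in KAR2-treated AtKAI2OE.

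**Figure D4:**
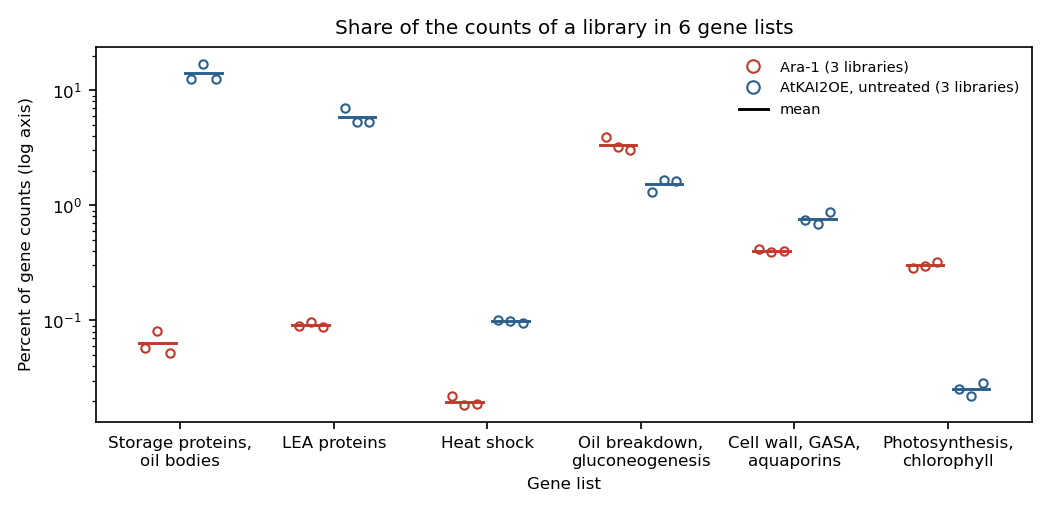
Percent of the gene counts of each library (log axis) that fell on 6 gene lists, with a circle for each library and a bar for the mean of 3 libraries (red, Ara-1; blue, untreated AtKAI2OE). Storage and oil-body genes held 0.052% to 0.082% in Ara-1 and 12.5% to 16.9% in AtKAI2OE, while photosynthesis genes held 0.286% to 0.322% and 0.022% to 0.029%.

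3 promoters of lower genes are shown because their genes changed together and carry the motifs that maturation factors are known to bind. Each is the 250 bases before the annotated gene start in the RefSeq annotation of TAIR10.1, on the strand of the gene. Capitals mark the G-box (CACGTG), the ABA-response element (ACGTGGC), the RY element (CATGCATG) and the GA-response element (TAACAAA), on either strand, and a run of CACGTGGC is a G-box and an ABA-response element that overlap. SESA5 lies at chr5:22239188-22239437 (minus strand), OLEO1 at chr4:12900180-12900429 (plus strand), and EM6, a late embryogenesis gene, at chr2:16780369-16780618 (minus strand).
SESA5: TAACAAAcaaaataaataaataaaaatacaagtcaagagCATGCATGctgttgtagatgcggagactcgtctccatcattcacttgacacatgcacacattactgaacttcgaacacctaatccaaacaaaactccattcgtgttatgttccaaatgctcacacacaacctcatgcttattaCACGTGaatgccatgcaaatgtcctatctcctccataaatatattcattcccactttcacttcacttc
OLEO1: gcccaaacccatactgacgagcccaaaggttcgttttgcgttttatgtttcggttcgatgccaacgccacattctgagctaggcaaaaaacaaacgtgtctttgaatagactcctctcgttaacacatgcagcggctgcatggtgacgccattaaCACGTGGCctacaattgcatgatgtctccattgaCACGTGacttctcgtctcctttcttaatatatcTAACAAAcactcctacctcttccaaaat
EM6: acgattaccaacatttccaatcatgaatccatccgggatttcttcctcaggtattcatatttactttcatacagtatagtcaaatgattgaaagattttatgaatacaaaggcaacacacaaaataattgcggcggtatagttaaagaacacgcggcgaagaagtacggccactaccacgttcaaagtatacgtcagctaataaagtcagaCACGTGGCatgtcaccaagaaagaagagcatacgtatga
A G-box was found in 45.0% of the 20 storage and oil-body promoters, in 59.3% of the 27 promoters of tested late embryogenesis genes and in 7.91% of all 17213 protein-coding genes tested. The RY element was found in 5 of the 20 storage promoters, in 3.70% of the late embryogenesis promoters and in 0.604% of all. Among the 2212 protein-coding genes that were at least 4-fold lower in Ara-1, 13.9% held a G-box and 8.45% an ABA-response element, and among the 3597 that were at least 4-fold higher the shares were 7.34% and 3.31%, beside 4.19% of all for the ABA-response element. The GA-response element was found in 13.9% of the lower genes, 16.7% of the higher genes and 16.0% of all. A match is a description of these letters and was not tested.

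Late embryogenesis abundant (LEA) proteins protect the desiccated embryo. Of 27 tested LEA genes, 24 were lower in Ara-1, each by at least 4-fold, and 3 were higher by at least 4-fold, with a median of -5.64. EM6 (AT2G40170) had 19.7, 50.7 and 36.1 CPM in the Ara-1 libraries and 13778, 6294 and 8501 CPM in the AtKAI2OE libraries (-8.07 ± 0.60), and its relative EM1 was lower too (-7.59 ± 0.39). RAB18 (AT5G66400) had 57.7, 60.3 and 48.3 CPM in the Ara-1 libraries and 23952, 14916 and 17082 CPM in the AtKAI2OE libraries (-8.39 ± 0.42), and RAB18 encodes an ABA-responsive dehydrin. ECP31 had the largest difference downward of the list (-9.64 ± 0.51). The 3 higher genes encode acidic dehydrins known from cold and drought: COR47, with 58.1, 37.7 and 41.3 CPM against 1.395, 0.739 and 1.16 (5.41 ± 0.30), ERD14 (3.37 ± 0.18), and ERD10, which had no count in AtKAI2OE (at least 53.5-fold higher). The LEA list held 0.088% to 0.097% of gene counts in Ara-1 and 5.25% to 7.01% in AtKAI2OE.

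Heat shock genes, several of which are made in maturing seeds, were also mostly lower. Of 20 tested, 16 were lower and 3 higher, with a median of -3.48. HSP17.4 (AT3G46230) had 0.315, 0.507 and 0.355 CPM in the Ara-1 libraries and 248, 173 and 138 CPM in the AtKAI2OE libraries (-8.83 ± 0.36), and HSFA9, the heat shock factor of seed maturation, had 0, 0.203 and 0.0820 CPM against 33.8, 25.8 and 15.6 (-7.74 ± 0.59). The disaggregase gene HSP101 was lower (-4.27 ± 0.22), and so was HSP70 (-1.96 ± 0.19). HSP90.1 was lower (-3.36 ± 0.81), but AtKAI2OE replicate 1 held 4.85 CPM where the other replicates held 48.1 and 51.8. Higher in Ara-1 were the mitochondrial HSP23.5 (1.43 ± 0.21), HSFB1 (0.96 ± 0.24) and HSFA3, which had no count in AtKAI2OE and 0.787, 1.34 and 0.766 CPM in Ara-1, at least 21.6-fold higher.

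Genes that turn seed oil into sugar were higher in Ara-1, 18 of 22 tested, with 1 lower, 3 not called and a median of 1.22. The lipase gene SDP1 (1.096 ± 0.14), the beta-oxidation genes ACX3 (2.33 ± 0.22), MFP2 (1.82 ± 0.25) and KAT2 (1.60 ± 0.24) and the gluconeogenesis gene PCK1 (1.85 ± 0.26) were among them. PCK1 (AT4G37870) had 6242, 4468 and 4412 CPM in the Ara-1 libraries and 1491, 1178 and 1512 CPM in the AtKAI2OE libraries. The genes of the enzymes that define the glyoxylate cycle did not pass the main test. ICL, for isocitrate lyase, had 14677, 10124 and 11081 CPM in Ara-1 and 8911, 10794 and 10111 in AtKAI2OE (0.27 ± 0.29, adjusted p = 0.438), and MLS, for malate synthase, 3752, 2554 and 2320.4 against 1999, 2051 and 2099.6 (0.49 ± 0.25, adjusted p = 0.124). MLS passed with DESeq2 (0.53, adjusted p = 0.0383) and with scaling by library size only in edgeR (0.84, adjusted p = 0.0147). The isoforms of peroxisomal citrate synthase differed, with CSY2 higher (3.27 ± 0.20) and CSY3 not past the test (0.39 ± 0.20), though it passed without AtKAI2OE replicate 3 (0.57) and with scaling by library size only. ICL was among the 10 genes with the most counts in both groups, not divided by gene length. Of the paired multifunctional proteins of beta-oxidation, MFP2 was higher and AIM1 lower (-1.89 ± 0.21). 4 members passed 4-fold, all upward. The list held 3.02% to 3.91% of gene counts in Ara-1 and 1.31% to 1.65% in AtKAI2OE (exact two-sided permutation p = 0.1, the smallest possible).

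A joint list of genes for cell wall loosening, GASA peptides and tonoplast aquaporins was mostly higher. Of 28 tested, 22 were higher, 20 of them by at least 4-fold, and 3 were lower, with a median of 3.98. EXPA2 (AT5G05290) had 742, 478 and 509 CPM in the Ara-1 libraries and 27.2, 21.4 and 58.9 CPM in the AtKAI2OE libraries (4.00 ± 0.44), and EXPA2 encodes an expansin that is known from the endosperm of germinating seeds. EXPA1 (4.42 ± 0.30), EXPA3 (5.45 ± 0.36) and EXPA9 (4.33 ± 0.39) were higher too. XTH5 (AT5G13870) had 336, 333 and 405 CPM in the Ara-1 libraries and 5.98, 5.60 and 6.48 CPM in the AtKAI2OE libraries (5.89 ± 0.19), and XTH genes encode enzymes that cut and rejoin xyloglucan. XTH9 (5.92 ± 0.55), XTH4 (6.25 ± 0.49) and XTH31 (4.81 ± 0.33) were higher too, but XTH25 was lower, with 4.14, 5.66 and 4.38 CPM against 1115, 997 and 1268 (-7.89 ± 0.27). The GA-regulated peptide genes GASA4 (6.23 ± 0.33) and GASA14 (2.88 ± 0.26) were higher, and GASA1 did not pass the test (0.37 ± 0.26), though it passed without AtKAI2OE replicate 1 (0.60) and with scaling by library size only. TIP3;1 (AT1G73190) had 15.1, 18.7 and 13.6 CPM in the Ara-1 libraries and 5253, 3789 and 4932 CPM in the AtKAI2OE libraries (-8.20 ± 0.33), and TIP3;2 was lower too (-8.33 ± 0.32), both being aquaporins of maturing seeds. TIP1;2 and TIP2;1, which mark vegetative vacuoles, had no count in AtKAI2OE and stood at 35.8, 31.4 and 32.8 CPM and at 3.20, 2.59 and 3.01 CPM in Ara-1, at least 701-fold and at least 61.3-fold higher. The summed share of the list was smaller in Ara-1 (0.39% to 0.418% of gene counts) than in AtKAI2OE (0.682% to 0.874%), where TIP3;1 and TIP3;2 had the most counts of its members.

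Glucosinolates are the sulfur-rich defense compounds of the cabbage family. Of 19 tested genes of their synthesis and breakdown, 14 were higher in Ara-1 and 2 lower, with a median of 3.17. Genes of the indole branch and of core steps not particular to it were higher. CYP79B2 (AT4G39950) had 116, 92.0 and 85.0 CPM in the Ara-1 libraries and 0, 0.389 and 0.644 CPM in the AtKAI2OE libraries (7.99 ± 0.56), and CYP79B3 (8.02 ± 0.66), CYP83B1 (6.51 ± 0.51), the C-S lyase gene SUR1 (3.06 ± 0.15), the glucosyltransferase gene UGT74B1 (2.75 ± 0.16) and the regulator MYB34 (5.69 ± 0.57) were higher with it. The regulators of the aliphatic branch, MYB28 and MYB29, and the chain-elongation genes MAM1 and MAM3 had no count in any of the 6 libraries. Nitrile-specifier genes, which act when the compounds are broken down, split: NSP5 (5.09 ± 0.22) and NSP1 (4.08 ± 0.28) were higher, while NSP2 (AT2G33070) had 6.19, 5.18 and 3.80 CPM in the Ara-1 libraries and 1826, 2056 and 1318 CPM in the AtKAI2OE libraries (-8.43 ± 0.36). The side-chain gene AOP3 had no count in Ara-1 and 13.7, 10.7 and 9.57 CPM in AtKAI2OE, at least 349-fold lower. Only 8 flavonoid genes were tested, 4 higher and 2 lower, with 2 called higher without Ara-1 replicate 1, without Ara-1 replicate 3 or without AtKAI2OE replicate 3. FLS1, for flavonol synthase, had no count in AtKAI2OE (at least 84.5-fold higher), UGT78D1 was higher (2.56 ± 0.20) and the F3'H gene, which adds a hydroxyl group to flavonoids, was lower (-4.31 ± 0.23). Of the genes for proanthocyanidins of the seed coat, BAN, TT2, TT8, TT12 and others had no count in any of these libraries.

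In these seeds kept in the dark, genes of photosynthesis and chlorophyll synthesis were higher in Ara-1, 22 of 28 tested, 19 by at least 4-fold, with 2 lower and a median of 3.32. CRD1 (AT3G56940) had 74.5, 72.8 and 84.1 CPM in the Ara-1 libraries and 2.53, 1.52 and 2.06 CPM in the AtKAI2OE libraries (5.26 ± 0.22), and CRD1 encodes a subunit of the cyclase of chlorophyll synthesis. The magnesium chelatase genes CHLI1 (4.19 ± 0.18) and CHLH (4.54 ± 0.65), the methyltransferase gene CHLM (2.68 ± 0.17) and the protochlorophyllide oxidoreductase genes PORB (5.76 ± 0.33) and PORC (5.10 ± 0.20) were higher, and CAO, which makes chlorophyll b, was lower (-3.24 ± 0.14). RBCS genes encode the small subunit of Rubisco. RBCS1A (AT1G67090) had 1274, 1190.0 and 1436 CPM in the Ara-1 libraries and 186, 117 and 190.1 CPM in the AtKAI2OE libraries (2.98 ± 0.26). RBCS3B (7.69 ± 0.47) and RBCS2B (6.60 ± 0.27) were higher as well, and RBCS1B had no count in AtKAI2OE (at least 1169-fold higher), and since only uniquely mapped reads were kept, reads shared by these near-identical copies are not in the counts and the values of single copies are uncertain. Genes of the antenna proteins had low values in both groups. CAB1 had 1.63, 1.12 and 2.13 CPM in Ara-1 and 0.532, 0.389 and 0.773 in AtKAI2OE, LHCB2.1 and LHCB2.2 had no count, and LHCB4.2 was lower in Ara-1 (-3.96 ± 0.22). Of 101 tested genes of the plastid genome itself, 8 were higher, 3 lower and 90 not called, and these counts moved with the settings. They were 14 higher with DESeq2 or with scaling by library size only, 13 with limma (10 added), 17 higher and 6 lower with the replicate block, and 1 in each direction at a threshold of 0.01. They also moved with single libraries, with 23 higher without AtKAI2OE replicate 2, 3 higher without AtKAI2OE replicate 1 or 3, 5 higher and 1 lower without Ara-1 replicate 2, and 9 lower without Ara-1 replicate 1.

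Flowering regulators were included because natural accessions are known to differ in them. FLC, the repressor of flowering that vernalization silences, had 1.31, 1.27 and 1.53 CPM in Ara-1 and 58.8, 37.4 and 35.6 in AtKAI2OE (-4.99 ± 0.27). Its relatives MAF2 (-3.83 ± 0.21) and MAF3 (-4.41 ± 0.82) were lower. FLC lies at chr5:3173382-3179448 (TAIR10.1). The MADS gene SVP had no count in AtKAI2OE and 0.944, 1.14 and 1.29 CPM in Ara-1, at least 24.7-fold higher. In all 4 of 19 tested genes were higher and 9 lower, with 6 not called and a median of -0.40.

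The labels name whole seeds, and the markers of seed compartments did not move as a block. Of 9 tested endosperm and seed coat markers 6 were higher and 3 lower. EPR1 (AT2G27380) had 119.8, 201 and 150.3 CPM in the Ara-1 libraries and 1317, 3388 and 1914 CPM in the AtKAI2OE libraries (-3.81 ± 0.42), and EPR1 is an extensin-like gene of the micropylar endosperm. NCED6 and MFT were lower, and EXPA2 higher, as given above. Seed coat and epidermis genes GL2 (5.98 ± 0.60), MUM4 (2.59 ± 0.29) and DELTA-VPE (2.53 ± 0.30) were higher, and ZOU, BAN, TT10 and PRX36 had no count in any library. Summed CPM of the 13 markers ran from 752 to 982 in Ara-1 and from 2013 to 4020.1 in AtKAI2OE. Most of the AtKAI2OE sums came from EPR1 and MFT, and most of the Ara-1 sums from EXPA2, so the sums describe these genes. The 10 leaf, root and pollen markers had summed CPM from 1312 to 1564 in Ara-1 and from 136 to 210.4 in AtKAI2OE. Most of each sum came from RBCS1A, given above. Of these markers 5 were tested and all 5 were higher. The root genes among them were PLT1, a factor of the root stem cell region (2.46, 2.87 and 2.68 CPM against 0, 0.156 and 0), RHD6, a factor of root hairs (2.41, 2.94 and 2.52 against 0, 0 and 0.0859), and SCR, a factor of the endodermis (0.83 ± 0.15). PLT1 and RHD6, near 0 in AtKAI2OE, passed the count filter through Ara-1 alone and could only be called higher. Under a stricter filter, where each library had to hold 10 or more counts of a gene, 3 of these markers were called higher. LHCB2.2 and the pollen genes VGD1 and AT3G07820 had no count, and WOX5 had 3 counts in each group. The part of changed proportions of tissues in the results above was not tested. The defining storage genes of a seed were at 0.052% to 0.082% of gene counts in Ara-1.

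The genes with the largest changes outside the lists, chosen by fold among genes with an average log2 CPM of at least 4, came from many pathways. CYP81F4, a cytochrome P450 that modifies indole glucosinolates, had 95.8, 86.8 and 86.5 CPM in Ara-1 and no count in AtKAI2OE, at least 1889-fold higher. AKN2 (8.58 ± 0.85), for an APS kinase, and SOT17 (9.14 ± 0.41), for a sulfotransferase, belong to the sulfur steps of glucosinolate synthesis. FD1, a ferredoxin (9.80 ± 0.37), the cell surface gene AGP18 (8.62 ± 0.56) and the protease gene AT5G19100 (8.76 ± 0.40) were also in this set. At the other end, GASA2 (AT4G09610) had 0, 0 and 0.219 CPM in the Ara-1 libraries and 748, 426 and 505 CPM in the AtKAI2OE libraries (-12.63 ± 0.78), so this GA-regulated peptide gene went against GASA4 and GASA14. SGR2, a phospholipase-like gene of shoot gravitropism, had no count in Ara-1 and 51.3, 82.2 and 56.2 CPM in AtKAI2OE, at least 2074-fold lower. The ribosomal protein gene AT5G46430 likewise had no count against 223, 90.4 and 126 CPM. Among the 10 genes with the most counts (not divided by gene length) in Ara-1 were LOS1, for elongation factor 2 (1.17 ± 0.25), AT5G60390, for elongation factor 1-alpha (1.28 ± 0.31), and the ADP/ATP carrier gene AAC1 (3.03 ± 0.29), where AtKAI2OE had CRA1, CRU3, RAB18, OLEO1 and EM6. The Ara-1 set also held the rRNA genes AT3G41768 and AT2G01010, the mitochondrial gene RRN26 and the uncharacterized AT2G01021. Their values were highest in Ara-1 replicate 1, as for AT3G41768 with 12792 CPM against 2059 and 2849 in the other Ara-1 replicates. AT3G41768 and AT2G01021 were in the AtKAI2OE set as well. The calls of AT5G60390 (limma adjusted p = 0.158 with 1 added and 0.0728 with 10 added) and LOS1 (0.0638 with 1 added) were lost with limma on the authors' normalized counts.

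Many genes had counts in only 1 of the groups. In AtKAI2OE 2806 genes with counts in Ara-1 had none, and 466 of these had at least 100 counts over the Ara-1 libraries. In Ara-1 1090 genes with counts in AtKAI2OE had none, and 113 had at least 100. These numbers were not adjusted for depth. Ara-1 replicates 2 and 3 held more gene counts than any AtKAI2OE library, though Ara-1 replicate 1 held the fewest. Summed over a group, a 0 is more easily reached in AtKAI2OE and 100 counts in Ara-1. The part of depth in the excess was not tested. The second set of 113 held 103 genes with counts in every untreated AtKAI2OE library, of which 93 also had counts in every KAR2-treated AtKAI2OE library and 2 in none of them. Of the 457 genes of the first set with at least 100 counts and counts in every Ara-1 library, 303 had counts in every KAR2-treated library and 55 in none. Besides genes named above, FPS1, for farnesyl diphosphate synthase (19.8, 19.2 and 17.9 CPM), and SCPL9, a serine carboxypeptidase-like gene (18.8, 22.6 and 19.5 CPM), had counts in Ara-1 and not in untreated AtKAI2OE. WOX2, an embryo patterning gene (18.7, 17.5 and 16.3 CPM), and the ceramidase gene AT1G07380 (23.1, 31.4 and 27.4 CPM) had counts in AtKAI2OE and not in Ara-1. A 0 was not always a property of the group, since AT5G42092 had 218, 0 and 233 CPM in AtKAI2OE and AT3G20760 had 0, 80.5 and 0 CPM in Ara-1.

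Genes were also grouped by annotation, and the class members named here were chosen after their values were seen. The counts stand beside all genes tested, of which 37.9% were higher and 31.8% lower, and 20.5% and 13.2% by at least 4-fold. Genes for NLR immune receptors, which recognize pathogens and vary among accessions, were called lower in 36 of 79 tested (30 by at least 4-fold) and higher in 11, with 32 not called. When at least 10 counts were required in every library, 13 were called lower and 2 higher. Of the class, 11 genes with at least 100 counts in AtKAI2OE had none in Ara-1. RPP1 had no count in Ara-1 and 33.0, 54.8 and 45.9 CPM in AtKAI2OE, and AT5G35450 likewise no count against 13.5, 35.2 and 10.3. F-box genes were lower more often than higher, 76 against 36 of 163 (46.6% and 22.1%). Nuclear genes for ribosomal proteins were higher, 199 of 319 tested (62.4%) against 35 lower, with a median of 1.05, and few of them passed 4-fold (48 higher, 11 lower). Their promoters held the site II motif (TGGGCC) in 45.8% and the telo box (AAACCCTA) in 14.4%, beside 18.0% and 3.71% of all. Lipid transfer protein genes were higher in 22 of 33 (66.7%), each by at least 4-fold, and receptor-like kinase genes in 99 of 202 (49.0%). Cytochrome P450 genes were higher in 50 and lower in 41 of 110 (45.5% and 37.3%). For UDP-glycosyltransferase genes these were 45 and 34 of 93 (48.4% and 36.6%). For glutathione S-transferase genes they were 17 and 18 of 42 (40.5% and 42.9%). These classes had members far apart in both directions. GSTF2 (AT4G02520) had 20.5, 21.7 and 17.1 CPM in the Ara-1 libraries and 3259, 2414 and 3172 CPM in the AtKAI2OE libraries (-7.22 ± 0.29), and its close relative GSTF3 was lower too (-6.77 ± 0.31). Only 13 of 46 terpene synthase genes and 8 of 113 defensin-like genes were tested. Of the terpene synthase genes 9 were higher (69.2%) and 3 lower (23.1%), and of the defensin-like genes 6 (75%) and 1 (12.5%). A gene without a count in 1 group, such as the defensin-like AT4G22235 in AtKAI2OE, passed the count filter through the other group alone. Such a gene could only be called on that side. Long noncoding RNAs were lower in 107 of 281 (38.1%, beside 31.8% of all) and higher in 61 (21.7%, beside 37.9%). The class of pseudogenes held 1 tested gene, which was not called.

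**Figure D5:**
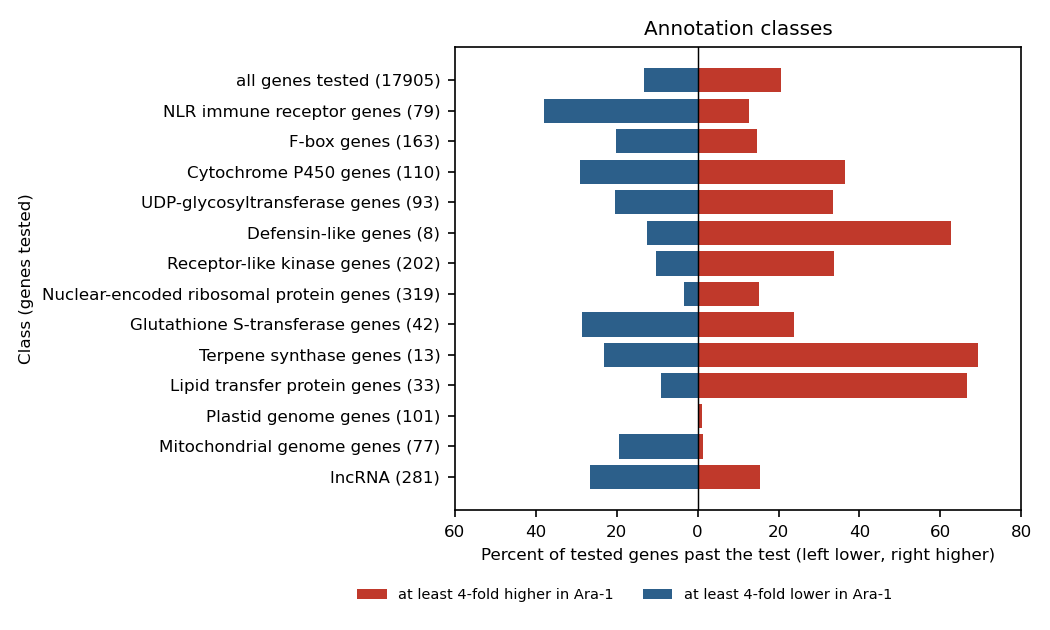
Bars to the right give the percent of tested genes of each class that were at least 4-fold higher in Ara-1 and past the test, bars to the left the percent at least 4-fold lower, with the number of genes tested in parentheses. NLR genes lie to the left (30 of 79 lower, 12.7% higher), lipid transfer protein genes to the right (66.7% higher, 9.09% lower), and all genes at 20.5% higher and 13.2% lower.

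Of 77 tested genes of the mitochondrial genome 24 were lower (31.2%, beside 31.8% of all genes tested). By at least 4-fold 15 were lower (19.5%, beside 13.2% of all). Only 1 was higher (1.30%, beside 37.9% of all). ORF262, an open reading frame of unknown role, had 0.0524, 0.0507 and 0 CPM in Ara-1 and 28.0, 26.1 and 27.4 in AtKAI2OE, and ATP6-2, for a subunit of the ATP synthase, had 1.57, 0.710 and 0.410 against 18.1, 17.77 and 16.96 (-4.38 ± 0.44). The share of gene counts in the mitochondrial genome was 2.33% in Ara-1 replicate 1 and 0.618% and 0.535% in its other replicates, against 0.869% to 1.17% in AtKAI2OE. Much of this share came from a single gene, RRN26. It had 12415, 2650 and 2251 CPM in the Ara-1 libraries and 6032, 7011 and 5140 CPM in the AtKAI2OE libraries. Without Ara-1 replicate 1, 44 mitochondrial genes were lower and 1 higher.

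On each of the 5 nuclear chromosomes similar shares of genes were called, with 19.6% to 21.5% of tested genes at least 4-fold higher and 12.1% to 13.9% at least 4-fold lower. Runs of 4 or more neighboring tested genes that were all at least 4-fold higher numbered 53 (247 genes), and runs of genes all lower numbered 13 (54 genes). The longest held 7 genes, all higher, at 3 places. At chr4:16577180-16608292 (TAIR10.1) lie 5 SAUR-like genes, a family of early auxin response, such as AT4G34790 (5.33 ± 0.25) and AT4G34760 (4.66 ± 0.40). At chr3:5556710-5595912 lie NSP1, NSP4 and 4 jacalin-lectin genes, among them PBP1 (3.80 ± 0.46) and JAL34 (5.75 ± 0.57). The last, at chr2:16886767-16915202, runs from AT2G40435 to HEME2, for uroporphyrinogen decarboxylase (2.07 ± 0.13). The longest runs of lower genes held 5, and SESA1 to SESA4 are in one of them, at chr4:13604466-13614283.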

How the data were processed

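Total RNA of whole seeds was extracted with hot phenol and made into directional libraries, 3 per group. Per the methods of the study, the authors trimmed reads, aligned them to TAIR10 with HISAT2 2.1.0, kept uniquely mapped reads with SAMtools 1.10, and assembled transcripts with StringTie 2.1.3 against Araport11. The authors deposited raw counts per gene and, for each library, a signal of normalized counts, which were the raw counts divided by DESeq2 1.18.1 size factors (within 0.1% for 100% of values). The strand setting of the counting was not stated. Reads of Ara-1 and AtKAI2OE were counted on the same Col-0 gene models, and the transgene has no row of its own.

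The matrix held 37054 rows, of which 35949 named 32830 genes (32545 matched the RefSeq annotation of TAIR10.1) and 1105 named none. Rows of the same gene were summed (3119 genes with 2 rows), and rows without a gene, with 13.4% to 35.1% of the counts of a library, were left out. Gene counts per library ran from 17479888 to 33306518. Genes were filtered with filterByExpr (minimum count 10, minimum total 15), scaled by TMM and tested with edgeR 4.0.16 (quasi-likelihood, R 4.3.3) on the 6 libraries, with Benjamini-Hochberg adjustment over all 17905 genes and a threshold of 0.05. The standard error is the log2 fold change divided by the square root of F. A fold against a group without counts was computed against 3 counts over the group and covers counting error only. The p-values measure the spread among 3 biological replicates. The script was tested on simulated counts drawn from these libraries, with only a small share of genes changed. In the data 69.6% of tested genes were called, so the simulation does not show how the test performs in that setting.

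Genes named are members of 16 lists (364 genes), the 15 called genes with the largest fold in each direction (replicates not overlapping, average log2 CPM from 4 upward), the 15 genes with the most counts in 1 group and none in the other, the 10 genes with the most counts of each group, genes of the longest runs, and class members chosen after seeing values. The lists and members were chosen with earlier results of these data known. Alternatives were RLE or library-size scaling, DESeq2 1.42.0, other count filters, a replicate block, all 9 libraries in the fit, limma 3.58.1 on the normalized counts, organelle genes left out, other handling of rows, a threshold of 0.01 and each library left out in turn.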

Additional observations from a re-analysis of the deposited data

Results flagged for a closer look

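Rows of assembled transcripts that name no gene were used above only in the alternative fit that kept them. Of these rows 878 were tested, 242 higher and 253 lower in Ara-1. Of the 1105 such rows, 20 had no count in any untreated AtKAI2OE library and at least 100 counts in each Ara-1 library, and they are given here because they are a signal outside the gene table. Over the 3 Ara-1 libraries these 20 rows held between 418 and 8684 counts each, with a median of 1789, and 14 of them had no count in the KAR2-treated AtKAI2OE libraries either. The reverse, no count in Ara-1 and at least 100 in each untreated AtKAI2OE library, held for 8 rows. As for the genes without a count, the numbers of rows were not adjusted for depth. What these transcripts are was not tested.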

How the results depend on the processing

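Of 3420 pairs of a named gene and an alternative (183 genes, 19 alternatives), 3388 kept their direction and their side of the threshold, 20 lost the call, 8 gained it and 4 changed sign. PHYC, which was not called, changed sign when only the row named by its identifier was used (-0.37) and over the libraries left out in turn (-0.15 to 0.13), and RGA, also not called, did so with scaling by library size only (0.018). BBX20 and CYP707A1, not called, passed with scaling by library size only (0.69 and 0.83). Requiring at least 10 counts in every library, which by construction removes genes near 0 in 1 group, left 1518 genes at least 4-fold higher and 1554 lower. Under it the higher members numbered 2 for KAI2 and strigolactone signaling, 3 for light signaling, 1 for GA, 6 for glucosinolates, 11 for photosynthesis, 3 for the endosperm and seed coat markers and 3 for the leaf, root and pollen markers, and the lower members 9 for dormancy, 10 for heat shock, 1 for glucosinolates and 1 for flavonoids. Using only the row named by the gene identifier also left 1 lower flavonoid gene. The flavonoid genes called higher numbered 2 at a threshold of 0.01 and 2 to 4 over the libraries left out in turn, and the cause was not tested. With all counts of a library as the denominator, the storage share in AtKAI2OE was 10.2%, and the late embryogenesis share was 0.0728% in Ara-1 and 4.27% in AtKAI2OE. The total of called genes ran from 9637 of 13766 tested (at least 10 counts in every library) to 13418 of 18291 (all 9 libraries in the fit). With the replicate block 12036 genes were called in place of 12470. Same-numbered libraries deviated together with r of 0.05, 0.29 and 0.04, and not every library correlated best with its own number. Deviations from a mean of 3 libraries depend on each other, so this check cannot decide whether the numbers pair the samples.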
